A study of Mus musculus with 20 samples.

Results

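The autophagy genes described here are 38 genes chosen by symbol for their known role, from the kinases that start the process to the receptors that bring cargo to it. Each symbol matched 1 Ensembl identifier among the 29200 genes of the count table, and all 38 were among the 12153 genes that averaged 50 or more counts per library and were tested.

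Autophagy encloses cytoplasm, organelles or protein aggregates in a double membrane and delivers them to the lysosome. A kinase complex around ULK1 or ULK2 starts it, a lipid kinase complex around VPS34 marks the site, and a cascade of conjugation enzymes couples the small ATG8 proteins (the LC3 and GABARAP families) to the growing membrane. Receptors such as p62, the product of Sqstm1, bind both ubiquitinated cargo and ATG8 proteins, and autophagy is one of the routes by which neurons clear expanded polyglutamine proteins.

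RNA came from the cerebellum of male C57BL6/N mice that were WT/WT or 304Q/304Q, the latter carrying an interrupted CAACAG expansion in both murine Atxn3 alleles. This knock-in line was made with zinc-finger nucleases, so that the endogenous promoter drives the expanded gene, and it goes back to 1 founder. The 4 groups were WT/WT and 304Q/304Q mice of 2 months and WT/WT and 304Q/304Q mice of 12 months, with 5 mice and 5 libraries each. Polyadenylated RNA of the tissue as a whole was sequenced, so that fewer cells of a type and less RNA per cell cannot be told apart.

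Library totals lay between 11385380 and 16606406 counts, apart from 1 304Q/304Q mouse of 2 months with 27636687. The markers of Purkinje cells, granule cells, interneurons, astrocytes and Bergmann glia, oligodendrocytes, microglia and endothelial cells were detected in every library. Markers of the choroid plexus (Ttr, Kl, Folr1, Kcnj13), which lies next to the cerebellum, summed to over 100 CPM (counts scaled to a common library total) in 6 libraries, 1 of 304Q/304Q at 2 months, 3 of WT/WT at 12 months and 2 of 304Q/304Q at 12 months, against a highest sum of 9.46 in the WT/WT mice of 2 months. Skeletal muscle markers (Acta1, Myh4, Ckm) summed to 160 CPM in 1 304Q/304Q mouse of 12 months. At 12 months 4 of 5 Purkinje cell markers and 3 of 5 oligodendrocyte markers were called lower with the expansion. So were 2 of 5 markers of astrocytes and Bergmann glia and 2 of 3 blood markers. Of 4 tested genes listed for interneurons, Pvalb, Gad1 and Slc32a1 were called lower and Gad2 (-0.1, adjusted p = 0.466) was not. Which inhibitory neurons these 3 genes reflect was not tested. The part of all these cells in the results for the autophagy genes was not tested either. Atxn3 itself differed by -0.54 (log2) at 2 months (adjusted p = 0.0916) and by -0.13 at 12 months (adjusted p = 0.51). Its level does not check the labels, since the expansion leaves the gene transcribed.

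The members that passed the test in any comparison were Ulk2, Wipi2 and Sqstm1, and the 250 bases before their transcription starts are shown so that the genes behind the results can be placed. Starts are those that RefSeq gives. For Sqstm1 and Wipi2, and below for Atg3 and Atg7, the RefSeq start lies downstream of the first start in GENCODE, inside the gene span. For Sqstm1 and Atg3 the 2 starts lie close together. The sequences come from the RefSeq promoter table of GRCm38.p6, which holds 31 of the 38 members (Rb1cc1, Becn1, Pik3c3, Wdfy3, Atg12, Atg16l1 and Map1lc3a have no entry in it). Capitals mark a match to TGACNNNGC, the core of the antioxidant response element, searched on both strands.
Sqstm1, chr11:50210821-50211070, minus strand: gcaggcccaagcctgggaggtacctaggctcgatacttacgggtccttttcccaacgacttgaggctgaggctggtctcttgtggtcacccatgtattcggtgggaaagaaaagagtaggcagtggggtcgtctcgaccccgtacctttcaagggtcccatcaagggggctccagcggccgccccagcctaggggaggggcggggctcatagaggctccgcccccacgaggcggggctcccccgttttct
Ulk2, chr11:61855093-61855342, minus strand: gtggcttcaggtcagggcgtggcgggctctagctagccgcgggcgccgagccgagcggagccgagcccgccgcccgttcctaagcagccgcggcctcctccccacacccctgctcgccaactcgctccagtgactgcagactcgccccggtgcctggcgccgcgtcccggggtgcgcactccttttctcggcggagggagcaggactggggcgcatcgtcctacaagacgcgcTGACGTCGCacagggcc
Wipi2, chr5:142629334-142629583, plus strand: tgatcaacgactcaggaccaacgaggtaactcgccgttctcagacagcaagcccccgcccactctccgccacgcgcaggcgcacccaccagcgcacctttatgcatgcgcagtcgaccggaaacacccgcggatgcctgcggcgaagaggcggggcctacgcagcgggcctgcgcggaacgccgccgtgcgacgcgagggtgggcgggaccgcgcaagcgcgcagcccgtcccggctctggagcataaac
The stretches hold 63.2% G and C for Sqstm1, 72.8% for Ulk2 and 69.6% for Wipi2. TGACNNNGC occurred in this stretch for Ulk2, Atg13 and Tax1bp1, 3 of 31 members (9.68%), and for 11.5% of the 27025 genes in the table.

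Tfeb and Tfe3, both members, encode transcription factors that bind the E-box CACGTG and, in genes of autophagy and the lysosome, its longer form TCACGTGA, the CLEAR element. CACGTG lay in the 250 bases before the start of 3 of 31 members (9.68%), Atg3, Atg5 and Atg7, and of 6.86% of all genes in the table. TCACGTGA, each match of which is also a match to CACGTG, was found for Atg3, 1 of 31 members (3.23%), and for 0.907% of all genes. Capitals mark CACGTG, and the second match in Atg3 is the CLEAR element.
Atg3, chr16:45158713-45158785, plus strand: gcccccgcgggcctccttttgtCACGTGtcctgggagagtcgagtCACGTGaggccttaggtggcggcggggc
Atg5, chr10:44268303-44268338, plus strand: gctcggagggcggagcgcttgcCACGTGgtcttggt
Atg7, chr6:114670942-114670991, plus strand: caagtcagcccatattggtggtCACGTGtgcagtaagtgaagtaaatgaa
A match is a description of the letters and not a measured site. In the 304Q/304Q mice of 12 months the log2 difference from WT/WT was 0.08 for Atg3, an E2-like enzyme that transfers ATG8 proteins to lipid, -0.06 for Atg5, which joins ATG12 in the conjugate that guides this transfer, and 0.17 for Atg7, the E1-like enzyme of both conjugation reactions, and none of the 3 passed the test. Tfeb differed by -0.04 (95% interval -0.27 to 0.19) and Tfe3 by 0.04 (-0.09 to 0.16).

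To place the members by abundance, levels were expressed per exon length as CPM divided by the exonic kilobases of the gene (RPKM), averaged over the 20 mice. Gabarapl1, an ATG8 protein of the GABARAP family, was the most abundant with a mean of 168 RPKM. Sqstm1 followed with 98.6, Gabarap with 91, Map1lc3a with 56.9 and Gabarapl2 with 40.2 RPKM, so that 4 of the first 5 were ATG8 proteins. Atg4a, a protease that trims ATG8 proteins, was the least abundant at 1.98 RPKM, below Tfeb at 3.18, and the median member lay at 9.55 RPKM.

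By role, the median level was 56.9 RPKM for the 5 ATG8 proteins, 16.4 for the 7 receptors, scaffold and transcription factors, 16.3 for the 5 genes of the initiation kinase complex, 12.3 for the 5 genes of phagophore growth, 7.21 for the 10 conjugation genes and 6.39 for the 6 genes of the PI3-kinase complex. The RNA of the membrane-coating ATG8 proteins thus had a higher median level than that of the genes for the enzymes that attach them. Within gene families the mean levels differed. Ulk1 reached 35.9 RPKM and Ulk2 16.3, and Wipi2 12.3 and Wipi1 7.04. Atg4b stood at 8.90 against 7.66 for Atg4c and 6.77 for Atg4d. The ranges of Atg4b (from 7.92) and Atg4c (up to 8.88) overlapped. In CPM these 2 genes averaged 73.7 and 25.7, with 8278 and 3351 exonic bases. Most neighbours in the order of levels were not separated by their ranges, which overlapped over the 20 mice for 33 of 37 neighbouring pairs. Neighbours were not compared within each mouse. The 4 pairs whose ranges did not overlap were Gabarapl1 above Sqstm1, Gabarap above Map1lc3a, Map1lc3a above Gabarapl2 and Map1lc3b above Atg13. The exon length is that of all annotated exons together, which lowers the RPKM of genes with long alternative ends such as Map1lc3b, with 7517 exonic bases.

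**Figure D1:**
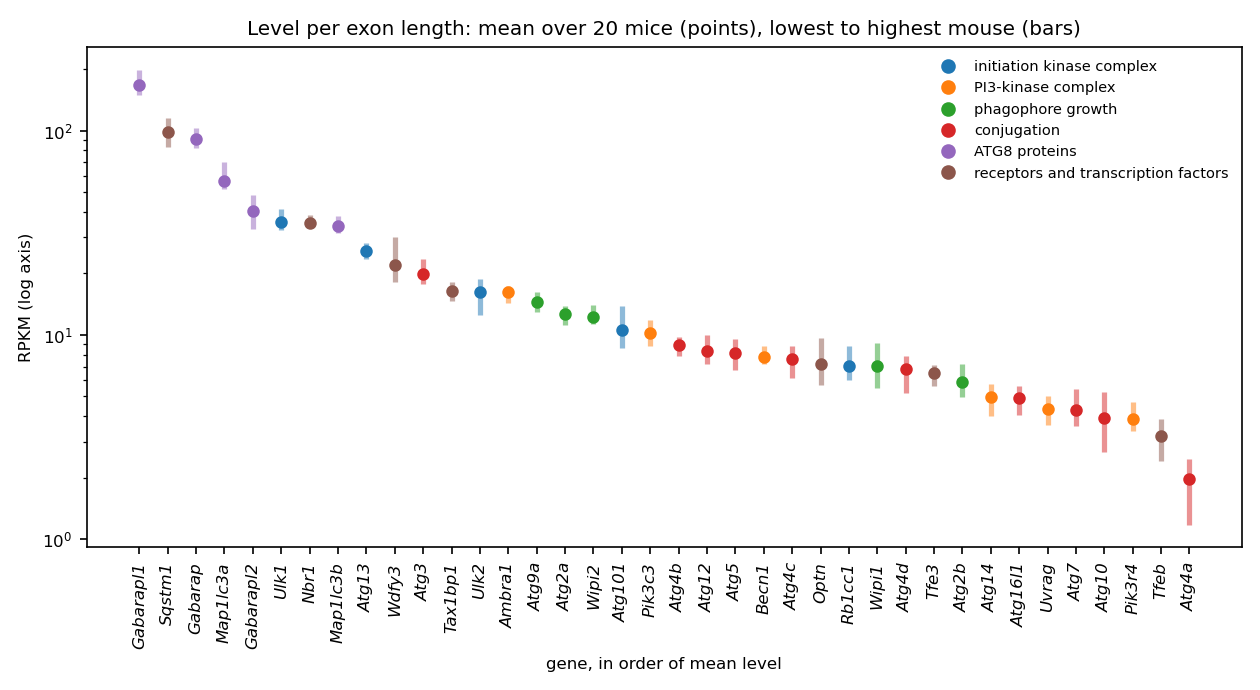
Level of each autophagy gene in RPKM on a log axis, with the mean over 20 mice as points and the lowest to the highest mouse as bars, coloured by role. Gabarapl1 stood highest at 168 RPKM and Atg4a lowest at 1.98 RPKM, and most neighbouring bars overlapped.

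Levels were steady between mice of a group. The coefficient of variation within groups, averaged over the 4 groups, ran from 3.50% for Wipi2, which binds the lipid made by VPS34, to 17.1% for Atg10, the E2-like enzyme of ATG12, with a median of 7.03%. Atg10 and Atg4a were also the members with the fewest counts. After these came Optn, a cargo receptor (11.7%), Wdfy3, a large scaffold for aggregate clearance (11.3%), and with equal values Atg4c and Rb1cc1, the scaffold FIP200 of the initiation complex (11.1%). Of these, Wdfy3 and Rb1cc1 had the most counts. In the WT/WT mice of 2 months Wdfy3 measured 465, 391, 368, 308 and 317 CPM and Rb1cc1 129, 119, 113, 98.6 and 99.5 CPM. The same 3 mice stood high for both genes, and in those 3 libraries counts fell with the GC content of the gene (slopes of -0.184, -0.121 and -0.124 log2 per 10% GC), while the slopes of the other 2 were 0.0725 and 0.0583. Rb1cc1 had a GC content of 39.1%, the lowest of the members, and Wdfy3 one of 51.8%, against a member median of 50.7%. Their exon lengths of 14690 and 15346 bases were the longest of the members. The part of GC content or length in the levels of the 2 genes was not tested.

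The first question was whether the expansion changed autophagy gene expression in young adults. At 2 months none of the 38 members passed an adjusted p of 0.05 by edgeR's quasi-likelihood test, where 0.0494% of all genes did (6 genes), and 0 members had an unadjusted p under 0.05, against 5.55% of all genes. DESeq2 likewise called 0 members. Between the genotypes, 0 members had groups that did not overlap (1.05% of all genes). None met the stricter DEG rule, which adds a log2 fold change of 0.5 or more in either direction, and which 0.00823% of all genes met. The limit of 0.5 is that of the study, which applied it in another fit (DESeq2 with surrogate variables), so its own counts can differ. The log2 differences of 304Q/304Q from WT/WT ran from -0.19 for Wdfy3 (95% interval -0.38 to 0.00) to 0.25 for Atg4a (-0.09 to 0.59), and 18 of 38 were positive.

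The size of the difference, taken without its sign, had a median of 0.0352 (log2) over the members and of 0.0688 over all genes tested. The members are measured more precisely than the typical gene, with a median level of 65.6 CPM against 33.8 CPM and a median half-width of the 95% interval of 0.153 against 0.199 (log2). For 37 of 38 members the whole 95% interval lay within a log2 difference of 0.5 in either direction, Atg4a being the exception, and for 32 it lay within 0.3.

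At 12 months, when 12.5% of all genes passed the test between the genotypes, 2 of 38 members did (5.26%), 1 in each direction. The higher one was Ulk2, a serine/threonine kinase that starts autophagosome formation (5.23% of all genes were called higher). The lower one was Wipi2, which recruits the conjugation machinery to the phagophore (7.3% of all genes were called lower). Neither reached a log2 fold change of 0.5, and 0 members were DEGs, against 3.09% of all genes. The share of members called was below that of all genes.

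Ulk2 (chromosome 11, 61775649 to 61855073, GRCm38) measured 88.0, 95.6, 74.9, 83.1 and 81.9 CPM in the WT/WT mice of 12 months. In the 304Q/304Q mice of that age it measured 102, 97.4, 96.6, 101 and 112 CPM. Every 304Q/304Q mouse lay above every WT/WT mouse, if by a small margin between the lowest and the highest. The means were 102 ± 6.34 and 84.7 ± 7.68 CPM (SD, n = 5 each), a log2 difference of 0.27 ± 0.0688 (SE) with an adjusted p of 0.011. Without the 7 libraries that held choroid plexus or muscle markers, which leaves 2 mice of each genotype at 12 months, the difference was 0.33 ± 0.109 and the adjusted p 0.0811.

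At 2 months Ulk2 had shown no such separation. The WT/WT mice measured 105, 90.7, 110, 92.6 and 101 CPM and the 304Q/304Q mice 97.1, 104, 106, 93.6 and 111 CPM, with a difference of 0.04 (95% interval -0.10 to 0.18). The mean of the 304Q/304Q mice of 12 months (102 CPM) was close to those of the young groups (99.7 in WT/WT and 102 CPM in 304Q/304Q mice). At 12 months WT/WT mice averaged less, 84.7 CPM, although their highest mouse lay above the lowest mice of both young groups. Whether the genotype difference itself changed with age was tested by the interaction, which gave 0.23 ± 0.0969 with an adjusted p of 0.25.

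Wipi2 (chromosome 5, 142627698 to 142670588) measured 142, 138, 148, 130 and 140 CPM in WT/WT and 128, 119, 120, 129 and 127 CPM in 304Q/304Q mice of 12 months. The groups did not overlap, and the highest 304Q/304Q mouse lay just under the lowest WT/WT mouse. The log2 difference was -0.16 ± 0.0444 (adjusted p = 0.0166). This call was lost in 7 of 32 other settings, among them both fits with surrogate variables (adjusted p = 0.126 in edgeR and 0.125 in DESeq2), with a difference between -0.19 and -0.13 throughout. Without the 7 libraries with choroid plexus or muscle markers the difference was -0.16 and the adjusted p 0.276. At 2 months the values ran from 122 to 132 CPM in WT/WT and from 124 to 132 CPM in 304Q/304Q mice, almost the same range.

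Ulk2 and Wipi2 were also the 2 of 38 members (5.26%) whose groups did not overlap at 12 months, while 8.94% of all genes tested had such groups. At an unadjusted p under 0.05 there were 5 members, with Atg101, Atg13 and Atg4b beside these 2, against 27.3% of all genes.

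**Figure D2:**
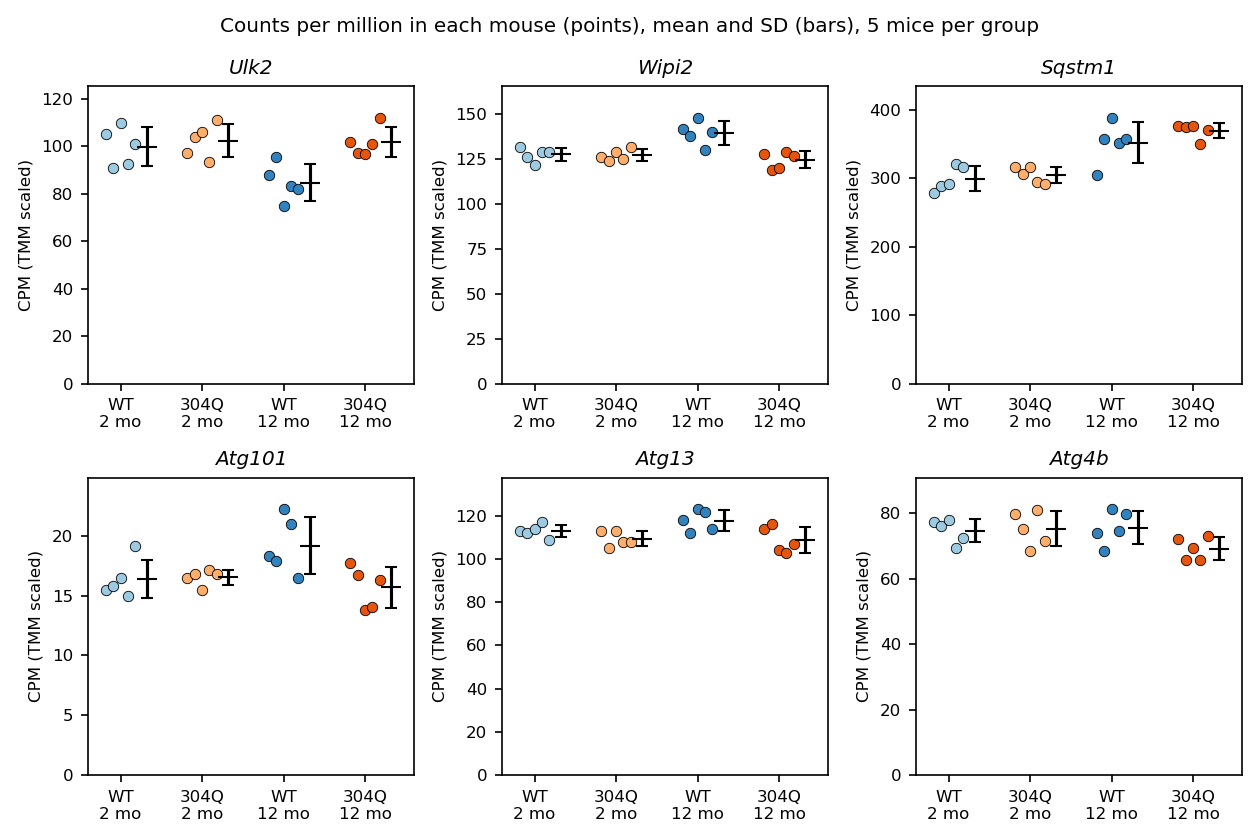
CPM in each mouse for the 3 called autophagy genes (Ulk2, Wipi2, Sqstm1) and the next 3 by p at 12 months (Atg101, Atg13, Atg4b), with points for mice and bars for the mean and SD of 5 mice. Ulk2 in WT/WT mice of 12 months sat lower than in the other 3 groups, and Sqstm1 was higher at 12 months in both genotypes.

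Atg101, Atg13 and Atg4b were lower in the mean but did not pass the test. Atg101, which stabilizes ATG13 in the ULK complex, measured 18.3, 17.9, 22.2, 21.0 and 16.5 CPM in WT/WT and 17.7, 16.7, 13.8, 14.0 and 16.3 CPM in 304Q/304Q mice of 12 months. The groups overlapped, and the difference of -0.29 (95% interval -0.49 to -0.09) had an adjusted p of 0.0551. It was the most negative value among the members, and it moved with the processing. It shrank to -0.17 (adjusted p = 0.275) once the dependence of counts on GC content and on length was taken out, and grew to -0.49 (adjusted p = 0.0613) without the 7 libraries with choroid plexus or muscle markers. It passed the test in 4 of 20 fits with 1 library left out (lowest adjusted p 0.0359).

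Atg13, the adaptor of the ULK kinases, measured 118, 112, 123, 122 and 114 CPM in WT/WT and 114, 116, 104, 103 and 107 CPM in 304Q/304Q mice of 12 months. Its difference was -0.11 (95% interval -0.21 to -0.02, adjusted p = 0.12), with overlapping groups. Atg4b, the main protease of the ATG8 proteins, measured 73.9, 68.5, 81.2, 74.7 and 79.9 CPM in WT/WT and 72.1, 65.7, 69.5, 65.6 and 73.1 CPM in 304Q/304Q mice, a difference of -0.13 (-0.25 to 0.00, adjusted p = 0.18), which was -0.24 without the 7 libraries with choroid plexus or muscle markers (adjusted p = 0.139). Within the initiation complex the called gene and the 2 next to it by p had differences of opposite sign, and Ulk1 (0.03, -0.07 to 0.13) and Rb1cc1 (0.07, -0.12 to 0.26) lay near 0.

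The other roles showed no called gene apart from Wipi2. In the PI3-kinase complex the differences ran from -0.12 for Atg14, the subunit that directs VPS34 to autophagy, to 0.09 for Pik3r4, its VPS15 scaffold. Between them lay Becn1, the Beclin 1 subunit (0.03, 95% interval -0.10 to 0.16), Pik3c3, which encodes VPS34 itself (-0.04), Uvrag (0.08) and Ambra1 (0.01). In phagophore growth, the lipid transfer proteins Atg2a (0.06) and Atg2b (-0.06), the scramblase Atg9a (-0.05) and Wipi1 (0.09) had adjusted p-values of 0.53 to 0.661.

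Among the 10 conjugation genes 5 differences were positive and 5 negative, from -0.13 for Atg4b and Atg12 to 0.17 for Atg7. Atg4a (-0.11, 95% interval -0.46 to 0.23) and Atg10 (0.13, -0.22 to 0.48) had the widest intervals of all members. Atg4c differed by 0.07, Atg4d by 0.01 and Atg16l1, which carries the ATG5 conjugate to the membrane, by -0.05. The ATG8 proteins Map1lc3a (-0.06), Map1lc3b (-0.08), Gabarap (-0.05) and Gabarapl2 (-0.10) were each lower in the mean and Gabarapl1 (0.06) higher, none past the test (lowest adjusted p 0.343).

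Among the receptors, Sqstm1 differed by 0.07 (95% interval -0.04 to 0.18, adjusted p = 0.44) between the genotypes at 12 months. Its 304Q/304Q mice measured 376, 374, 376, 350 and 370 CPM and its WT/WT mice 304, 357, 388, 352 and 357 CPM. The groups overlapped, and 1 WT/WT mouse lay well under the others. The value depended on the processing, with 0.14 (adjusted p = 0.0166) once GC and length trends were removed and also with surrogate variables in DESeq2, 0.13 (adjusted p = 0.0711) with surrogate variables in edgeR, and -0.03 (adjusted p = 0.883) without the 7 libraries with choroid plexus or muscle markers. Nbr1 (0.00, -0.09 to 0.09), Tax1bp1 (-0.06), Optn (-0.04) and Wdfy3 (0.02) lay near 0.

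**Figure D3:**
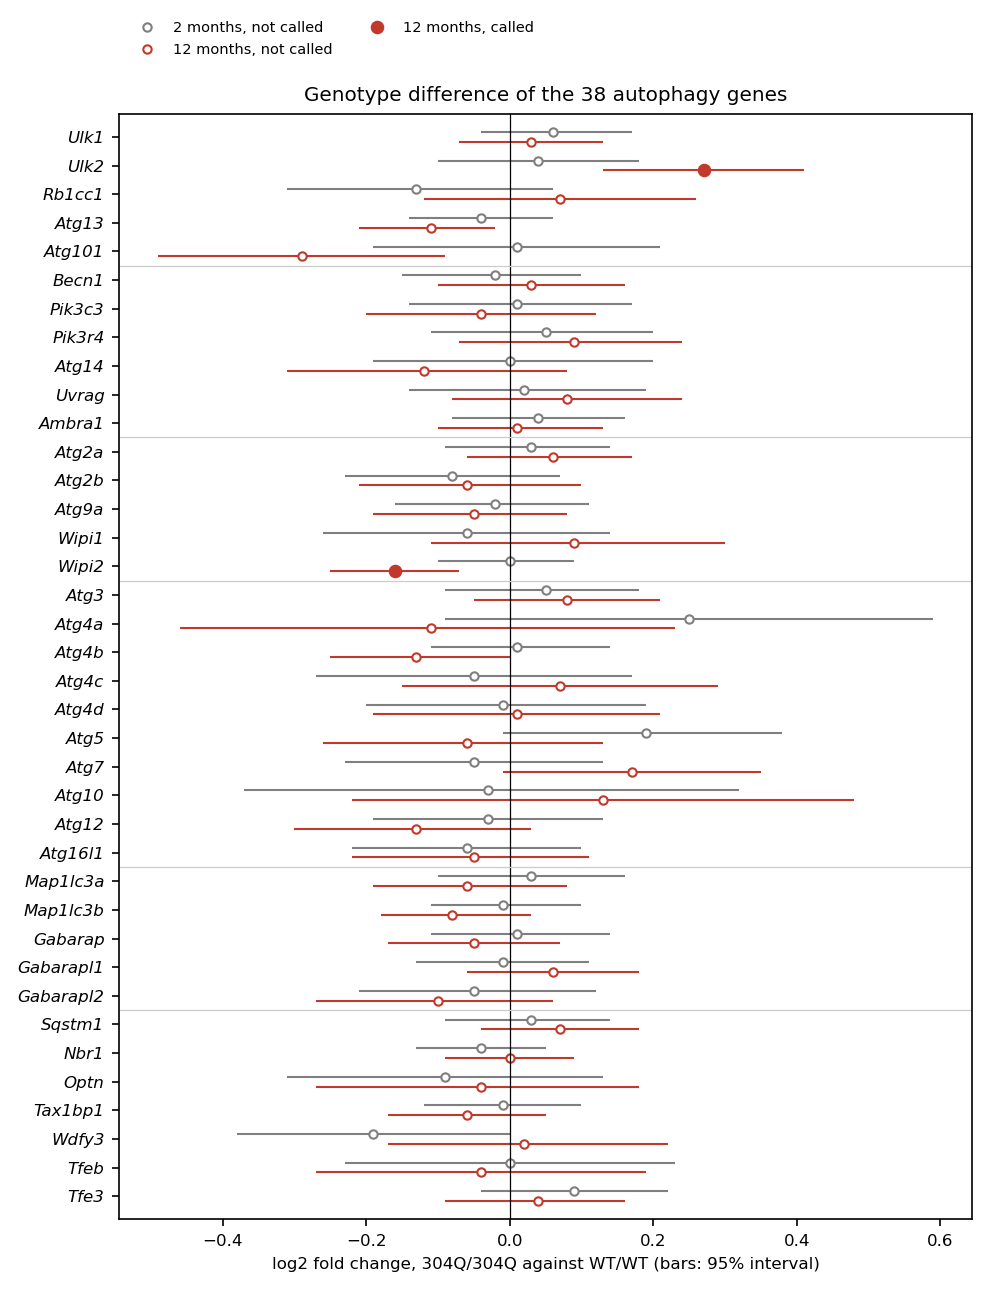
Log2 fold change of 304Q/304Q against WT/WT for each of the 38 autophagy genes at 2 months (grey) and 12 months (red), grouped by role from the initiation complex at the top to receptors and transcription factors at the bottom, with bars for the 95% interval and filled points for genes past the test. Ulk2 (0.27) and Wipi2 (-0.16) at 12 months are the only filled points.

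Over the 38 members the median size of the difference at 12 months was 0.0642 (log2), and over all genes tested 0.125. A size of at least 0.2 was reached by 2 members (5.26%) and by 30.4% of all genes. The 95% interval lay within 0.5 in either direction for 38 of 38 members and within 0.3 for 32.

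**Figure D4:**
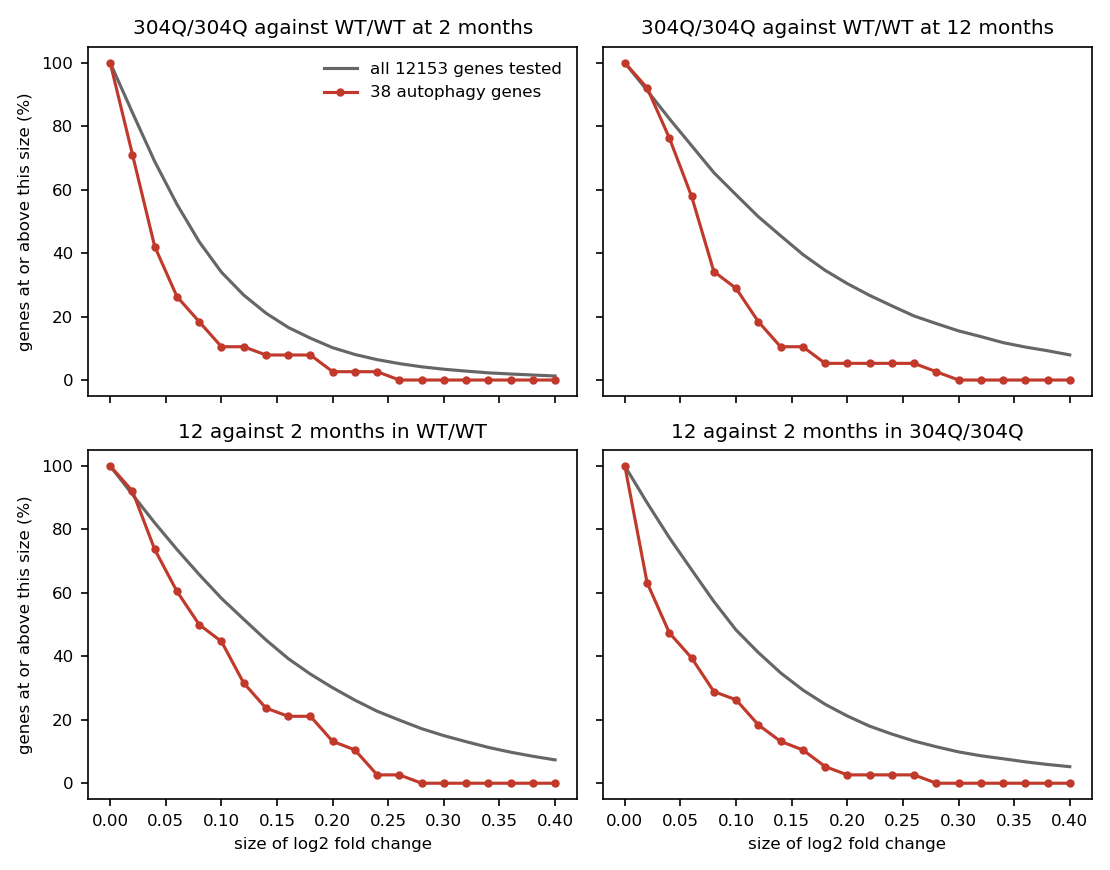
Share of genes, in percent, whose log2 fold change has at least the size on the horizontal axis, for the 38 autophagy genes (red) and all 12153 genes tested (grey) in 4 comparisons. At a size of 0.2 the autophagy genes stood at 2.63% against 10.2% for genotype at 2 months, 5.26% against 30.4% for genotype at 12 months, 13.2% against 30.1% for age in WT/WT and 2.63% against 21.2% for age in 304Q/304Q mice.

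The second question was how the genes moved from 2 to 12 months in each genotype. In WT/WT mice 2 of 38 members passed the test (5.26%), while 11.5% of all genes did. Sqstm1 was higher at 12 months (6.08% of all genes were called higher) and Ulk2 lower (5.42% were called lower). In 304Q/304Q mice 1 of 38 passed, against 7.26% of all genes: Sqstm1, again higher (3.08% of all genes), with 0 members lower (4.18%). With age 0 members were DEGs, where 2.58% of all genes were in the WT/WT and 2.28% in the 304Q/304Q comparison.

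Sqstm1 (chromosome 11, 50199366 to 50210827, minus strand) measured 278, 289, 292, 320 and 316 CPM in WT/WT mice of 2 months, beside the 304, 357, 388, 352 and 357 CPM at 12 months given above. The groups overlapped through 1 mouse of 12 months. The mean rose from 299 ± 18 to 352 ± 30.3 CPM (SD, n = 5 each), a log2 change of 0.23 ± 0.0553 (adjusted p = 0.00882). In 304Q/304Q mice of 2 months it measured 316, 306, 316, 294 and 292 CPM, all below the 350 to 376 CPM of the 12-month mice. The change was 0.28 ± 0.0552 (adjusted p = 0.00184), and the rise in the 2 genotypes differed by 0.04 (95% interval -0.12 to 0.20). That difference was 0.13 with GC and length trends removed and 0.14 with surrogate variables in edgeR and in DESeq2 (lowest adjusted p over these 0.147). The 2 age comparisons share no mice. With age 4 of 5 granule cell markers were called lower in the WT/WT comparison and 2 of 5 in the 304Q/304Q comparison, and 4 of 5 oligodendrocyte and 4 of 5 Purkinje cell markers in the latter. Other markers rose with age, as Sqstm1 did. Of 4 tested microglia markers 2 were called higher in the WT/WT comparison (Csf1r, Tmem119) and 2 in the 304Q/304Q comparison (Csf1r, Cx3cr1), and the microglia markers summed to 51.6 to 61.2 CPM in the mice of 2 months and to 58.4 to 83.4 CPM in those of 12 months. Both tested choroid plexus markers, Ttr and Kl, were called higher in the WT/WT comparison and neither in the 304Q/304Q comparison. Pcp2, Pvalb, Slc32a1 and Hba-a1 were also called higher in the WT/WT comparison. There 2 of 5 oligodendrocyte markers and 2 of 5 markers of astrocytes and Bergmann glia were called lower. In the 304Q/304Q comparison Gfap and Acta1 were called higher, while Pvalb and 3 of 5 markers of astrocytes and Bergmann glia were called lower. The part of these cells in the change of Sqstm1 was not tested.

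The rise of Sqstm1 in 304Q/304Q mice was 0.26 without the 7 libraries with choroid plexus or muscle markers (adjusted p = 0.0562), and that in WT/WT mice 0.30 (adjusted p = 0.0177). In WT/WT mice it shrank to 0.14 with surrogate variables in edgeR (adjusted p = 0.0571), to 0.13 with surrogate variables in DESeq2 (adjusted p = 0.0209) and to 0.15 with GC and length trends removed (adjusted p = 0.0186). In 304Q/304Q mice it stayed at 0.28 in these 3 settings. The ends of Sqstm1 and of Mrnip, a gene on the other strand, share 750 bases. Mrnip averaged 45.6 counts per library and Sqstm1 4688, and whether the counting kept the strands apart is not given in the sources used here. Annotated exons of other genes overlapped those of 13 of the 38 members in all.

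Ulk2 fell by 0.24 ± 0.0688 (log2) with age in WT/WT mice (adjusted p = 0.0291) from 99.7 ± 8.04 to 84.7 ± 7.68 CPM, with overlapping groups. In 304Q/304Q mice its difference with age was -0.01 (95% interval -0.15 to 0.14). The age comparison in WT/WT and the genotype comparison at 12 months share the 5 WT/WT mice of 12 months, so the 2 calls of Ulk2 rest in part on the same libraries. The call with age was kept in 15 of 20 fits with 1 library left out. It was lost (highest adjusted p 0.1) without WT/WT 2-month mouse 1 or 3, or without WT/WT 12-month mouse 3, 4 or 5. Every loss thus fell among the fits that left out a mouse compared here. Fits without a 304Q/304Q mouse, which is outside this comparison, left the difference at -0.24 to -0.23. The call between genotypes was kept in all 20 fits with 1 library left out, with a highest adjusted p of 0.0427. Of these, the fits without a 2-month mouse left the difference at 0.27. In the WT/WT mice of 12 months 4 of 5 libraries had counts that rose with GC content, and in the 304Q/304Q mice 1 of 5. With GC and length trends removed Ulk2 differed by 0.25 (adjusted p = 0.007) between the genotypes at 12 months and by -0.20 (adjusted p = 0.0461) with age in WT/WT mice.

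**Figure D5:**
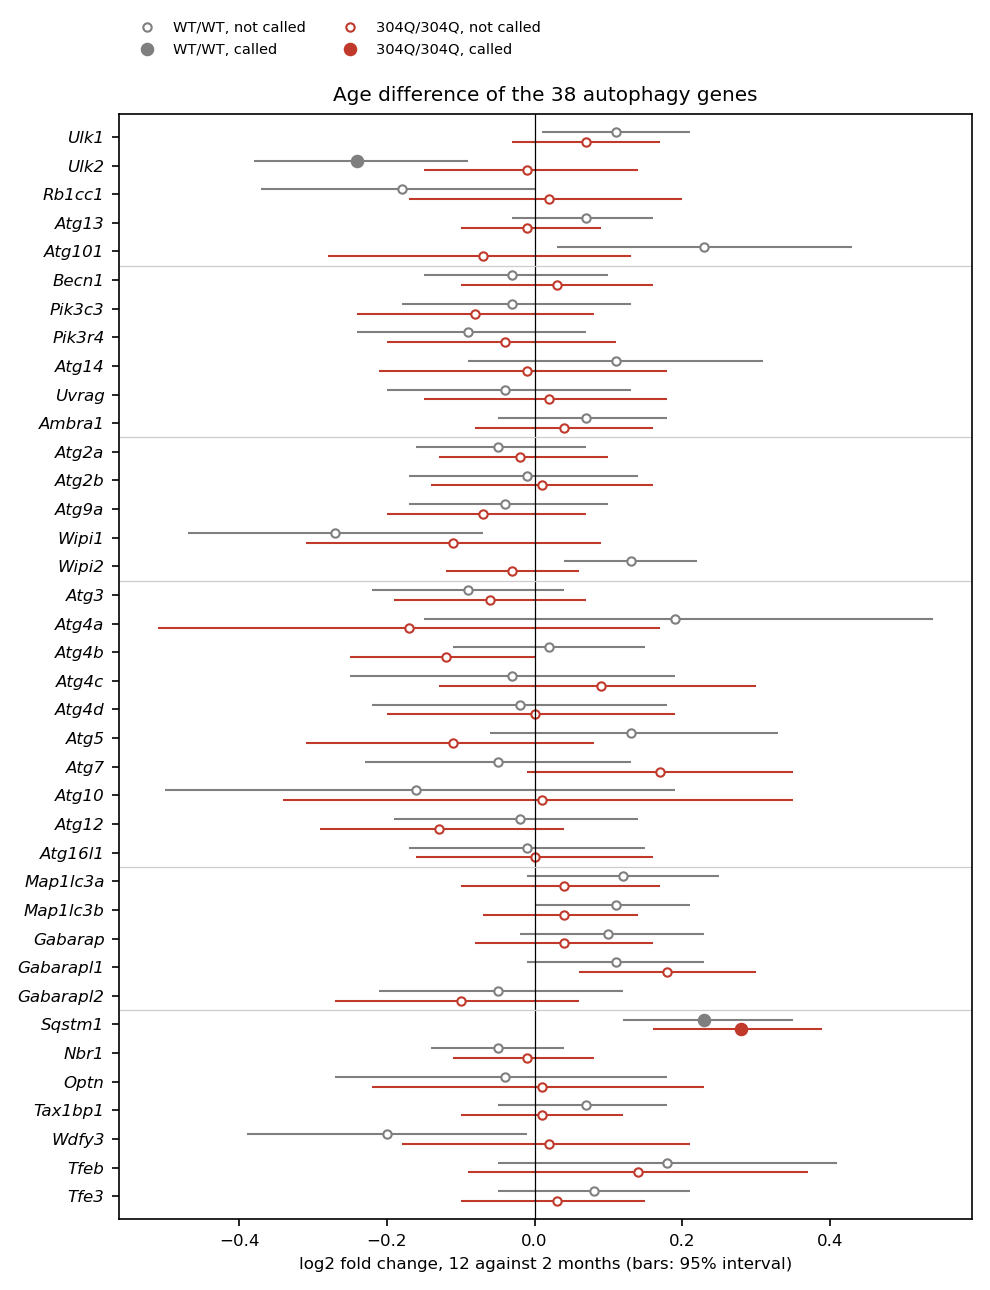
Log2 fold change of 12 against 2 months for each of the 38 autophagy genes in WT/WT (grey) and 304Q/304Q mice (red), grouped by role, with bars for the 95% interval and filled points for genes past the test. Sqstm1 is filled in both genotypes (0.23 and 0.28), and Ulk2 in WT/WT mice (-0.24).

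Groups of 2 and 12 months did not overlap for 1 of 38 members in WT/WT mice, Ulk1, against 6.57% of all genes, and for 1 in 304Q/304Q mice, Sqstm1, against 7.8%. Ulk1 measured 212, 215, 223, 231 and 220 CPM at 2 months and 231, 245, 249, 233 and 232 CPM at 12 months in WT/WT mice. The highest mouse of 2 months and the lowest of 12 months are equal as printed, and the groups separated only in the digits beyond. Its log2 difference was 0.11 (95% interval 0.01 to 0.21) with an adjusted p of 0.135, in the opposite direction to Ulk2.

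Below the threshold, the members closest to a call with age were Gabarapl1 in 304Q/304Q mice and Wipi2 and Wipi1 in WT/WT mice. Gabarapl1 measured 320, 319, 300, 343 and 319 CPM at 2 months and 362, 400, 385, 357 and 310 CPM at 12 months in 304Q/304Q mice. Of the older mice 4 of 5 lay above every younger one, and the difference was 0.18 (95% interval 0.06 to 0.30, adjusted p = 0.0562). DESeq2 and 6 other settings called it. Wipi2 differed by 0.13 (0.04 to 0.22, adjusted p = 0.0575) and Wipi1, its paralogue, by -0.27 (-0.47 to -0.07, adjusted p = 0.0723) in WT/WT mice, in opposite directions.

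The ATG8 proteins other than Gabarapl2 had differences of 0.10 to 0.12 with age in WT/WT mice (Map1lc3a 0.12, Map1lc3b 0.11, Gabarap 0.10, Gabarapl1 0.11), none of which passed the test. In 304Q/304Q mice Map1lc3a, Map1lc3b and Gabarap each stood at 0.04. At an unadjusted p under 0.05 there were 7 members in WT/WT mice and 2 in 304Q/304Q mice, with 27.5% and 19.1% of all genes. The median size of the age difference was 0.0826 (log2) for WT/WT and 0.0376 for 304Q/304Q mice, beside 0.125 and 0.0958 over all genes tested.

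Whether the genotype changed the course with age was asked by the interaction. By edgeR's quasi-likelihood test 0 of 38 members passed an adjusted p of 0.05 (1.95% of all genes did), 0 were DEGs (0.938% of all genes), and DESeq2 called 0. At an unadjusted p under 0.05 there were 3 members, Wipi2 (-0.16, adjusted p = 0.216), Ulk2 (0.23, adjusted p = 0.25) and Atg101 (-0.30, adjusted p = 0.293), against 15.9% of all genes. The value of Atg101 was -0.14 with GC and length trends removed and -0.52 without the 7 libraries with choroid plexus or muscle markers. These intervals are wide. The 95% interval lay within 0.5 for 34 of 38 members and within 0.3 for 23, and a p above the threshold does not show that the course with age was the same.

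Other genes of the pathway were read beside the members from 3 lists chosen by role. Among 15 genes of nutrient sensing upstream of the ULK complex, 2 were called higher and 2 lower at 12 months with the expansion, where 5.23% of all genes were called higher and 7.3% lower. The catalytic subunits of AMP-activated kinase, which phosphorylates ULK1, were higher, Prkaa1 by 0.32 (adjusted p = 0.016) and Prkaa2 by 0.37 (adjusted p = 0.0361). Ddit4 (-0.31, adjusted p = 0.0339) and Sesn1 (-0.25, adjusted p = 0.00932), both of which restrain mTORC1, were lower. Sesn1 also fell by 0.22 with age in 304Q/304Q mice (adjusted p = 0.0294), the 1 gene of the list called there (4.18% of all genes were lower), and no gene of the list passed at 2 months, with age in WT/WT mice or in the interaction.

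Of 15 genes for tethering and fusion with the lysosome, 0 passed edgeR's test in any of the 5 comparisons, where the share of all genes called ran from 0.0494% at 2 months to 12.5% at 12 months. Of 16 other phagophore factors and selective receptors, 15 could be tested. At 12 months 1 of them was called lower with the expansion (7.3% of all genes). With age 3 were called higher in WT/WT mice (6.08% of all genes), and 2 higher (3.08%) and 1 lower (4.18%) in 304Q/304Q mice. At 2 months 0 were called (0.0494% of all genes), and in the interaction of genotype and age 0 (1.95%). Bag3, a co-chaperone that sends aggregated clients to autophagy together with p62, was lower by -0.52 in 304Q/304Q mice of 12 months (adjusted p = 0.00432). It rose with age by 0.79 in WT/WT (adjusted p = 0.000148) and by 0.40 in 304Q/304Q mice (adjusted p = 0.0389). Pink1, a kinase that marks damaged mitochondria, rose by 0.26 in WT/WT (adjusted p = 0.0032) and by 0.24 in 304Q/304Q mice (adjusted p = 0.00417). Calcoco1 rose by 0.21 in WT/WT mice (adjusted p = 0.0236), and Trp53inp2 fell by 0.37 in 304Q/304Q mice (adjusted p = 0.00434).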

How the data were processed

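Cerebellar RNA of 20 male mice was sequenced after polyA selection with a stranded kit, per the labels and the study's methods. The authors aligned the reads with STAR (version 2.4.5b in the submitters' processing notes) to GRCm38, and deposited raw whole-number counts per gene, made with Rsubread. The strand setting of the counting is not given in the sources used here. The labels name the wild-type gene ataxin-2, and the study's methods describe Atxn3.

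Counts were scaled by TMM in edgeR 4.0.16 (R 4.3.3), and the 12153 genes averaging 50 or more counts, 99.31% of all counts, entered 1 quasi-likelihood model of the 4 groups without covariates. A gene was called at an adjusted p (Benjamini-Hochberg, over all genes tested) up to 0.05. CPM use the TMM-scaled totals, RPKM the union of GENCODE M21 exons. The fit was tested on simulated counts. Precision was set by the spread between mice (common biological coefficient of variation 0.113) more than by depth for most members, and intervals cover 5 mice a group.

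The members and lists were chosen with earlier results of these data known. Members called in any test were given in full, filled up to 6 with the smallest p at 12 months. Other genes were named because of their list, level or interval, some after their values were seen. Replicates differed by more than sampling noise (chi-square over its degrees of freedom 4.43 or more). The labels do not say that the numbers of mice pair them, and in no pair of groups did every same-numbered pair correlate above 0.1. The highest mean correlation of same-numbered mice was 0.116, between WT/WT mice of 2 and 12 months, where single pairs ran from -0.158 to 0.551. Alternatives were DESeq2 1.42.0, its size factors, surrogate variables (sva 3.50.0), other filters, thinning, removal of GC and length trends, only the groups compared, a replicate block and each library left out. Leaving out the libraries with choroid plexus markers over 100 CPM or muscle markers over 10 CPM was chosen after seeing the data.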

Additional observations from a re-analysis of the deposited data

Results flagged for a closer look

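In 8 of 152 sets of 5 mice (38 genes in 4 groups), 1 mouse stood far enough from the other 4 to exceed the 95% critical value of Dixon's test, where chance gives about 1 in 20. Among the 304Q/304Q mice of 2 months, Rb1cc1 measured 124 CPM in mouse 5 against 95.2 to 97.4 in the others. Atg14 measured 18.7 CPM in mouse 4 (others 21.2 to 22.3), and Atg5 18.4 CPM in mouse 1 (others 20.7 to 21.0). Among the 304Q/304Q mice of 12 months, Becn1 measured 61.7 CPM in mouse 5 (others 53.7 to 55.5), Ambra1 92.0 CPM in mouse 3 (others 103 to 106), Atg10 8.26 CPM in mouse 2 (others 6.29 to 6.57) and Sqstm1 350 CPM in mouse 4 (others 370 to 376). Among the WT/WT mice of 12 months, Atg16l1 measured 43.4 CPM in mouse 5 (others 48.6 to 50). No autophagy gene had a genotype effect that differed between the ages by the test of the interaction.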

How the results depend on the processing

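The number of autophagy genes called was 0 at 2 months and 0 in the interaction under every alternative run. For the genotype at 12 months, where 2 were called, 1 was called with no filter, with surrogate variables in edgeR and with only the groups compared, and 4 (Wipi2, Sqstm1, Ulk2 and Atg12) with GC and length trends removed. With age in WT/WT mice, where 2 were called, 1 was called with surrogate variables in edgeR and with only the groups compared, and 3 with GC and length trends removed (Wipi2 added, adjusted p = 0.0366) and without the 7 libraries with choroid plexus or muscle markers (Atg101 added at 0.39, adjusted p = 0.0498). With age in 304Q/304Q mice, where 1 was called, 2 (Gabarapl1 and Sqstm1) were called with DESeq2, with and without surrogate variables, with surrogate variables in edgeR and with at least 50 counts in every library. A log2 fold change of at least 0.5 gave 0 in each of these 3 comparisons. Without the 7 libraries, which leaves 13, 0 were called for the genotype at 12 months and 0 with age in 304Q/304Q mice, where Ulk2 stood at 0.33, Wipi2 at -0.16 and Sqstm1 at 0.26.

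With 1 library left out, between 1 and 3 autophagy genes were called for the genotype at 12 months, between 1 and 5 with age in WT/WT mice and between 1 and 2 with age in 304Q/304Q mice. The 5 in WT/WT mice came without WT/WT 12-month mouse 1 (Rb1cc1, Map1lc3b, Sqstm1, Ulk2 and Wipi1). Wipi2 lost its call without WT/WT 12-month mouse 3 (adjusted p = 0.0572) or without 304Q/304Q 12-month mouse 2 (adjusted p = 0.0535). The call of Ulk2 with age was lost without WT/WT 2-month mouse 1 or 3 or WT/WT 12-month mouse 3, 4 or 5.

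The mouse numbers share only a number across groups. A replicate block gave 2 autophagy genes called for the genotype at 12 months, 2 and 1 with age in WT/WT and 304Q/304Q mice and 0 in the other comparisons, and changed no call.

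Signs turned only for differences that were not called. Wipi2 at 2 months turned to 0.01 with GC and length trends removed, in thinned counts and with surrogate variables, and ran from -0.02 to 0.01 with 1 library left out. Its difference with age in 304Q/304Q mice turned to 0.00 with GC and length trends removed. Sqstm1 at 2 months turned to -0.01 and 0.00 with surrogate variables, at 12 months to -0.03 and in the interaction to -0.04 without the 7 libraries, and its interaction ran from -0.01 to 0.08 with 1 library left out. Atg101 at 2 months turned to -0.03 with GC and length trends removed and ran from -0.02 to 0.07 with 1 left out. Atg4b at 2 months turned to -0.01 in thinned counts and ran from -0.02 to 0.04, and with age in WT/WT mice from -0.01 to 0.05, with 1 left out. With age in 304Q/304Q mice Atg13 turned to 0.02 without the 7 libraries and ran from -0.03 to 0.01 with 1 left out, and Ulk2 from -0.05 to 0.03, turning to values of 0.00 to 0.03.

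The median half-width of the 95% interval of a member was 0.153 to 0.154 (log2) in the genotype and age comparisons and 0.218 in the interaction. RNA levels do not measure autophagic flux or protein.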
